A study of Mus musculus with 15 samples.

Results

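The Hox genes were taken from the arrays as every probe whose gene name, or whose bracketed symbol in the description, is Hox followed by a cluster letter from a to d and a paralogue number from 1 to 13. The rule found 44 probes for 37 genes, of 31342 gene names tested in all: 11 genes of the Hoxa cluster on chromosome 6, 10 of Hoxb on chromosome 11, 8 of Hoxc on chromosome 15 and 8 of Hoxd on chromosome 2. Where a gene had several probes, the probe brightest over both dyes stood for it, and all 37 genes entered the tests. The reference gene table holds 39 Hox genes of these clusters. Hoxc11 and Hoxd8 were not caught by the rule and are not analysed here. RNA of mouse fibroblasts from 5 sources was hybridised, 3 arrays per source and 15 in all, in the Cy5 channel against a commercial mouse reference RNA in Cy3. The series title links the fibroblasts to tumours that resist anti-VEGF treatment. The labels mark 2 sources, NSF and TAF-tib6, as sensitive (6 arrays) and 3, TAF-el4, TAF-tib42 and TAF-tib48, as resistant (9 arrays). TAF is read here as tumour-associated fibroblast, while the other abbreviations are not spelled out in the labels. The labels give no strain, genotype, age, anatomical site or agent for any source. Nor do they tell if replicate arrays stand for separate cultures or animals. P-values between sources thus rest on array-to-array spread, part or all of which may be technical.

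Hox genes encode homeodomain transcription factors that give cells along the body axis and the limbs their regional identity. They lie in clusters, and their order along the chromosome follows the order in which they are used from head to tail: low-numbered genes act anteriorly and high-numbered genes posteriorly and towards the ends of limbs. Fibroblasts of adult skin keep such a code in culture, so that the set of Hox genes a fibroblast expresses reflects the site it was taken from. Genes with the same number in different clusters are paralogues that descend from 1 ancestral gene. Groups 1 to 3 are called anterior here (8 genes measured), groups 4 to 8 middle (14 genes) and groups 9 to 13 posterior (15 genes).

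The sequences before the starts of Hoxa7, Hoxa10, Hoxa11 and Hoxd4 are shown first. Of these, Hoxa7, Hoxa10 and Hoxa11 lie in the same stretch of a single cluster and differed between sources in distinct ways. RefSeq promoter sequences of build GRCm38.p6 were at hand for 21 of the 37 genes, in 23 windows. None was at hand for Hoxb2, Hoxb5, Hoxb9, Hoxc8, Hoxc9 and Hoxc10, which also feature in the results, and that of Hoxa9 is not printed. Each window below holds the 250 bases before an annotated start, read 5′ to 3′ on the gene's strand. Capitals mark matches on either strand to TTTATG, a core sequence bound by Cdx homeodomain proteins, or to AGGTCA, the half-site of retinoic acid receptors. TGATNNAT, the composite site of Pbx and Hox proteins, was searched in the same way and had no match in the windows printed.
Hoxa7, chr6:52218574-52218823, minus strand: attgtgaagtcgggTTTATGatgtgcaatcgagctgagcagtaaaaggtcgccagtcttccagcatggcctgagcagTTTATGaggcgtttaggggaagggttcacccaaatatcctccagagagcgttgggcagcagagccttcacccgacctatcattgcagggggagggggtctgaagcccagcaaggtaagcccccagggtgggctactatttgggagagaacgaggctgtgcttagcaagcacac
Hoxa10, chr6:52234940-52235189, minus strand: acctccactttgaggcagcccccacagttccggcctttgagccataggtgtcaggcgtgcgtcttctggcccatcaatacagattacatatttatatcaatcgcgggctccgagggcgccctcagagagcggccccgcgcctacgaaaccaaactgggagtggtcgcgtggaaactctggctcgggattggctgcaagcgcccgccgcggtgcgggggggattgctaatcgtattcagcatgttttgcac
Hoxa10, other annotated start, chr6:52240855-52241104, minus strand: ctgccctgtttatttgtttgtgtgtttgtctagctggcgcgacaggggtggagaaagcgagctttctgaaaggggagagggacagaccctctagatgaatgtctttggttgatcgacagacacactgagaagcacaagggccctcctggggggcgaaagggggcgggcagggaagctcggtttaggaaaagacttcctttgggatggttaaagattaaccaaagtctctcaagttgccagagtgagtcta
Hoxa11, chr6:52245811-52246060, minus strand: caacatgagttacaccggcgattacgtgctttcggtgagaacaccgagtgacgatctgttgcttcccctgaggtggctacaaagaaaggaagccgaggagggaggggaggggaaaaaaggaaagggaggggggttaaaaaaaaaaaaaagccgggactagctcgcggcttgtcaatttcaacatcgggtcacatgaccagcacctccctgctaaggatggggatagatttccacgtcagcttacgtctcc
Hoxd4, chr2:74721728-74721977, plus strand: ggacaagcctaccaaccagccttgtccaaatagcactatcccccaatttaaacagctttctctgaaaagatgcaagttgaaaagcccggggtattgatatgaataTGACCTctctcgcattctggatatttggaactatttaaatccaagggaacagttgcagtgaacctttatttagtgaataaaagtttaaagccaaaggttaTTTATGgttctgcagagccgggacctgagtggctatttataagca
TTTATG occurred in 5 of the 23 Hox windows and in 10.8% of all 32851 promoter windows of this length. It occurred at 2 places before Hoxa7 and at 1 before Hoxd4. AGGTCA occurred in 5 Hox windows, among them that of Hoxd4, and in 14% of all windows. TGATNNAT occurred in 4 Hox windows and in 7.68% of all windows. CpG dinucleotides numbered 7 before Hoxa7, 20 and 7 before the starts of Hoxa10, 13 before Hoxa11 and 3 before Hoxd4, against a median of 13 over the Hox windows and of 6 over all windows. A match describes the letters only and is not evidence of binding.

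Values are log2 ratios of the fibroblast RNA to the reference RNA, so a value of 1 is 2-fold above the reference. Levels of different genes are not compared, because probes differ in response. Of 12 fibroblast genes listed, Pdgfrb, Thy1 and Col1a1 stood well above the reference in every source, with source means from 2.45 to 2.92 for Pdgfrb, 1.99 to 2.73 for Thy1 and 1.98 to 2.26 for Col1a1. The list was not level across sources: 5 of the 12 were lower than in NSF in TAF-tib6, 5 in TAF-el4, 4 in TAF-tib42 and 5 in TAF-tib48, and 0, 1, 0 and 2 were higher. Its mean log2 ratio was 1.05 in NSF, 0.89 in TAF-tib6, 0.71 in TAF-el4, 0.74 in TAF-tib42 and 0.68 in TAF-tib48. Dcn, the matrix proteoglycan decorin, differed most, with -0.01 in NSF, -1.31 in TAF-tib6 and -3.03 to -2.76 in the resistant sources. Pdgfra, a growth factor receptor of mesenchyme, had 1.30 in NSF, 0.96 in TAF-tib6 and -0.11 to 0.51 in the resistant sources. The part of these differences in the Hox values was not tested. The leukocyte gene Ptprc (-4.68 to -4.26) and the epithelial keratin Krt18 (-4.77 to -4.31) stood far below the reference. They were the lowest of 6 macrophage and 6 epithelial markers, of which the highest, Itgam and Krt5, stood at 0.02 to 0.11 and 0.06 to 0.16. Endothelial markers stood apart in TAF-tib48: 3 of 5 (Emcn, Cdh5 and Tek) were higher there than in each other source, Pecam1 and Kdr were not, and the mean log2 ratio of the 5 was 0.70 against 0.07 to 0.18 elsewhere. Emcn had a mean of 2.04 in TAF-tib48 and of 0.05 to 0.26 in the other sources. Of 6 lymphocyte markers, 4 were also higher in TAF-tib48 than in NSF (median difference of the 6 0.20), with none called between TAF-tib48 and TAF-tib6 or TAF-tib42. Of 3 nerve and Schwann cell markers, S100b was 0.52 higher in TAF-tib48 than in NSF (adjusted p = 2.5e-06). The part of RNA from such cells in the Hox values of TAF-tib48 or of the other sources was not tested. In RNA of a whole sample, fewer cells of a type and less RNA per cell cannot be told apart. All 37 Hox probes lay above the 99th percentile of the negative-control spots in Cy5 on all 15 arrays. Nearly all markers of other cell types did so too, so this detection limit does not separate expressed from silent Hox genes. The slides fall by number into 3 runs of 5, which split the sources unevenly: all NSF arrays lie in run 1, all TAF-tib42 arrays in run 2 and all TAF-tib6 arrays in run 3, while TAF-el4 spans runs 1 and 2 and TAF-tib48 runs 2 and 3. Counts with the slide run as a block in the model are given beside those without it, each with the share of all genes called in that fit. TAF-el4 has 2 arrays in run 1 and 1 in run 2, and TAF-tib48 has 1 in run 2 and 2 in run 3. In the block fit, sources with no run in common are linked only through these arrays. A call lost there thus does not show that a difference is absent.

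Of the 37 Hox genes, 20 differed among the 5 sources in a limma F test over all arrays at an adjusted p under 0.05. That is 54.1% of them, against a background of 42.9% of all genes tested. The median distance between a gene's highest and lowest source mean was 0.192 for the Hox genes and 0.159 for all genes, on the log2 scale. Hoxb and Hoxc held most of the differences, with 7 of 10 and 5 of 8 genes, whereas 4 of 11 Hoxa and 4 of 8 Hoxd genes passed. By position, 2 of 8 anterior, 7 of 14 middle and 11 of 15 posterior genes passed. Only Hoxa7 and Hoxa11 spanned at least 1 log2 unit between sources, 2 of 37 genes against a background of 2.26% of all genes. Among the 17 genes that did not pass were Hoxa2 to Hoxa6 and Hoxa13, Hoxb1, Hoxb4, Hoxb8, Hoxc4, Hoxc5, Hoxc12, Hoxd1, Hoxd3, Hoxd11 and Hoxd13. In the fit with slide run as a block 17 Hox genes passed, against 30.8% of all genes.

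**Figure D1:**
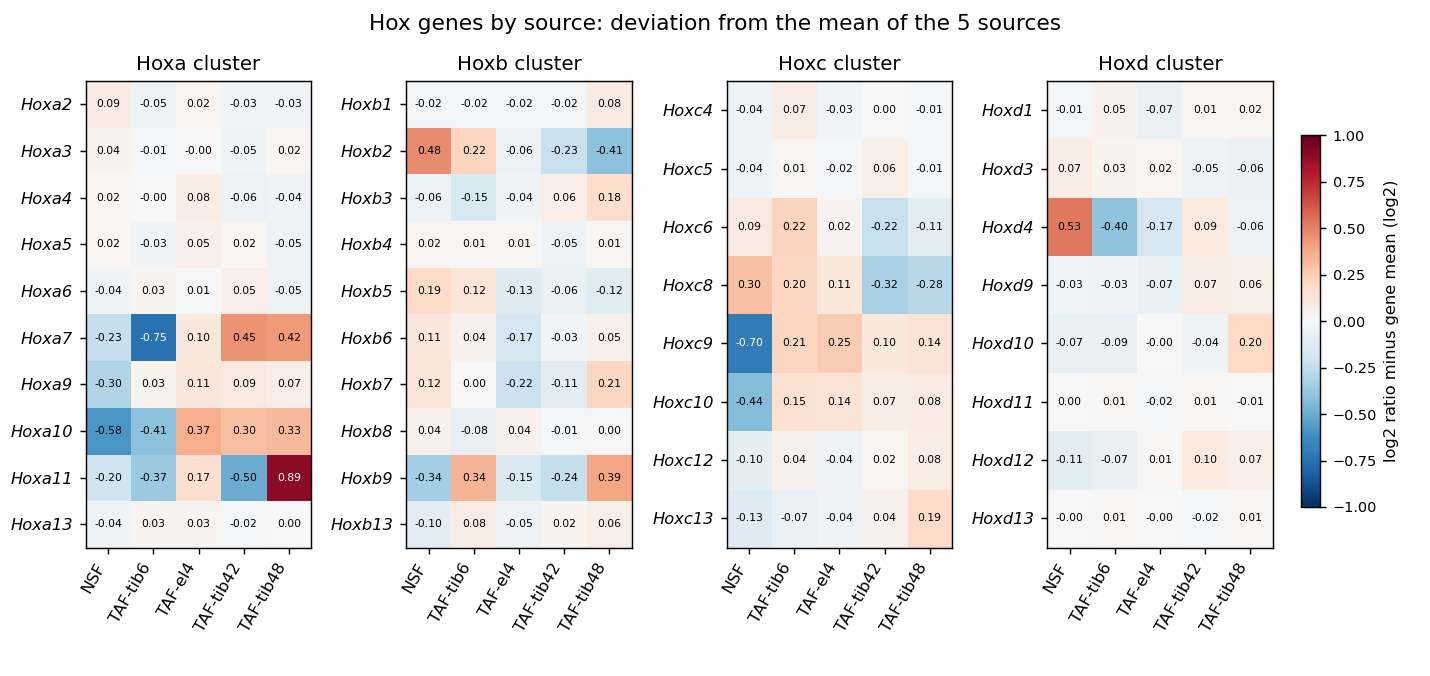
Each cell is, for 36 of the Hox genes, the mean log2 ratio of 1 gene in 1 source (3 arrays) minus the mean of that gene over the 5 sources, in rows by cluster and position and columns by source, with colour running from -1 to 1. Hoxa7, Hoxa10 and Hoxa11, Hoxb2 and Hoxb9, Hoxc8 to Hoxc10 and Hoxd4 carry the strongest colours, whereas the rows of Hoxa2 to Hoxa6, Hoxb4, Hoxd11 and Hoxd13 are nearly white.

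Within the Hoxa cluster, Hoxa7 and Hoxa10 were higher in the resistant sources than in the sensitive ones, Hoxa9 was low in NSF, and Hoxa11 was high in TAF-tib48. Hoxa7 is a middle gene of thoracic identity, and Hoxa9, Hoxa10 and Hoxa11 are posterior genes of the lower trunk, limb and urogenital tract. Hoxa13, the end gene of the cluster, used in the distal limb and the hindgut, had source means from 0.14 to 0.21 and did not pass the F test (adjusted p = 0.66). The values of single arrays follow.

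Hoxa7 read -0.06, -0.06 and -0.02 on the NSF arrays and -0.62, -0.52 and -0.56 on those of TAF-tib6. It read 0.31, 0.23 and 0.32 in TAF-el4, 0.66, 0.67 and 0.56 in TAF-tib42, and 0.57, 0.56 and 0.68 in TAF-tib48. Each resistant source lay above each sensitive source on all its arrays, and TAF-tib6 lay below NSF without overlap. On source means, Hoxa7 was not called by resistance (adjusted p = 0.35 by limma). Against TAF-tib6, Hoxa7 was 1.81-fold higher in TAF-el4 (log2 difference 0.85, SE 0.047, adjusted p = 3.6e-10), 2.29-fold in TAF-tib42 (1.20, adjusted p = 9.7e-13) and 2.25-fold in TAF-tib48 (1.17, adjusted p = 2.8e-12), all by limma. Against NSF the log2 differences were 0.33 in TAF-el4, 0.68 in TAF-tib42 and 0.65 in TAF-tib48 (adjusted p = 3.2e-05, 3.2e-09 and 4.7e-09). The sensitive sources also differed from each other, TAF-tib6 minus NSF being -0.52 (adjusted p = 3.4e-07). TAF-tib42 and TAF-tib48 were not called apart (0.03, SE 0.047, adjusted p = 0.80). TAF-el4 was 0.32 below TAF-tib48 (adjusted p = 5e-05), a call lost with slide run as a block (-0.26, adjusted p = 0.069). Run 2 holds 1 array of TAF-el4 and 1 of TAF-tib48, which read 0.32 and 0.57. The arrays that TAF-tib48 and TAF-tib6 share in run 3 gave 1.19 for Hoxa7 (adjusted p = 3.6e-06).

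Hoxa10 read -0.17, -0.12 and -0.15 in NSF and 0.05, 0.05 and 0.00 in TAF-tib6. It read 0.87, 0.77 and 0.77 in TAF-el4, 0.67, 0.85 and 0.70 in TAF-tib42, and 0.82, 0.69 and 0.79 in TAF-tib48. The resistant sources lay in a narrow band above each sensitive source on all their arrays and overlapped each other. On source means, Hoxa10 was not called by resistance (adjusted p = 0.215 by limma). Source means split by resistance without overlap for 26.6% of all genes. The fold over NSF was 1.93 in TAF-el4, 1.85 in TAF-tib42 and 1.88 in TAF-tib48 (log2 differences 0.95, 0.88 and 0.91, SE 0.051, adjusted p of 2.4e-10 or less by limma). Over TAF-tib6 it was 1.71, 1.63 and 1.66 (adjusted p of 5.9e-09 or less). Resistant sources were not called apart from each other, with log2 differences from -0.03 to 0.07. TAF-tib6 was 0.18 above NSF (adjusted p = 0.029). That small call was lost without any replicate in turn (adjusted p = 0.076 to 0.19), with scaled ratios (0.18), median centring (0.22), Cy5 alone (0.14) and slide run as a block (0.31).

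Hoxa11 read -1.12, -1.14 and -1.20 in NSF and -1.41, -1.28 and -1.30 in TAF-tib6. It read -0.85, -0.76 and -0.76 in TAF-el4, -1.36, -1.51 and -1.50 in TAF-tib42, and -0.09, -0.01 and -0.10 in TAF-tib48. TAF-tib48 stood apart from all others, near the level of the reference RNA, and TAF-el4 came next. The resistant sources held both the highest and the lowest means of this gene: TAF-tib42 was 1.39 below TAF-tib48 (SE 0.051, adjusted p = 9.8e-13), a 2.62-fold difference. TAF-tib48 was 1.09 above NSF (adjusted p = 1.4e-11) and 1.26 above TAF-tib6 (adjusted p = 3.2e-12). TAF-el4 was 0.37 above NSF and TAF-tib42 0.30 below it (adjusted p = 3.1e-05 and 0.00021), while TAF-tib42 and TAF-tib6 were not called apart (adjusted p = 0.073). TAF-tib6 minus NSF was -0.17 (adjusted p = 0.035) and lost its call without any replicate in turn (adjusted p = 0.075 to 0.27) and with slide run as a block (0.47). The probe was dim, with a mean Cy5 signal above background of 43.4 in TAF-tib42 and 254.9 in TAF-tib48, and the offset in the background correction shrinks ratios of dim probes. On the scanner's own ratio, the same differences for Hoxa11 were larger: 1.83 for TAF-tib48 minus NSF, 2.20 for TAF-tib48 minus TAF-tib6, 0.72 for TAF-el4 minus NSF, -0.82 for TAF-tib42 minus NSF and -0.37 for TAF-tib6 minus NSF.

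Hoxa9 read -0.26, -0.25 and -0.18 in NSF, and its other source means were 0.11 in TAF-tib6, 0.19 in TAF-el4, 0.17 in TAF-tib42 and 0.14 in TAF-tib48. NSF was low and the other sources overlapped. The log2 differences from NSF were 0.34, 0.42, 0.39 and 0.37 in that order (SE 0.046, adjusted p of 5.1e-05 or less). With slide run as a block, the difference of TAF-tib6 from NSF was 0.40, against 0.34 without it, and lost its call (adjusted p = 0.11). On the scanner's ratio, Hoxa9 in TAF-tib6 minus NSF was 0.51.

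**Figure D2:**
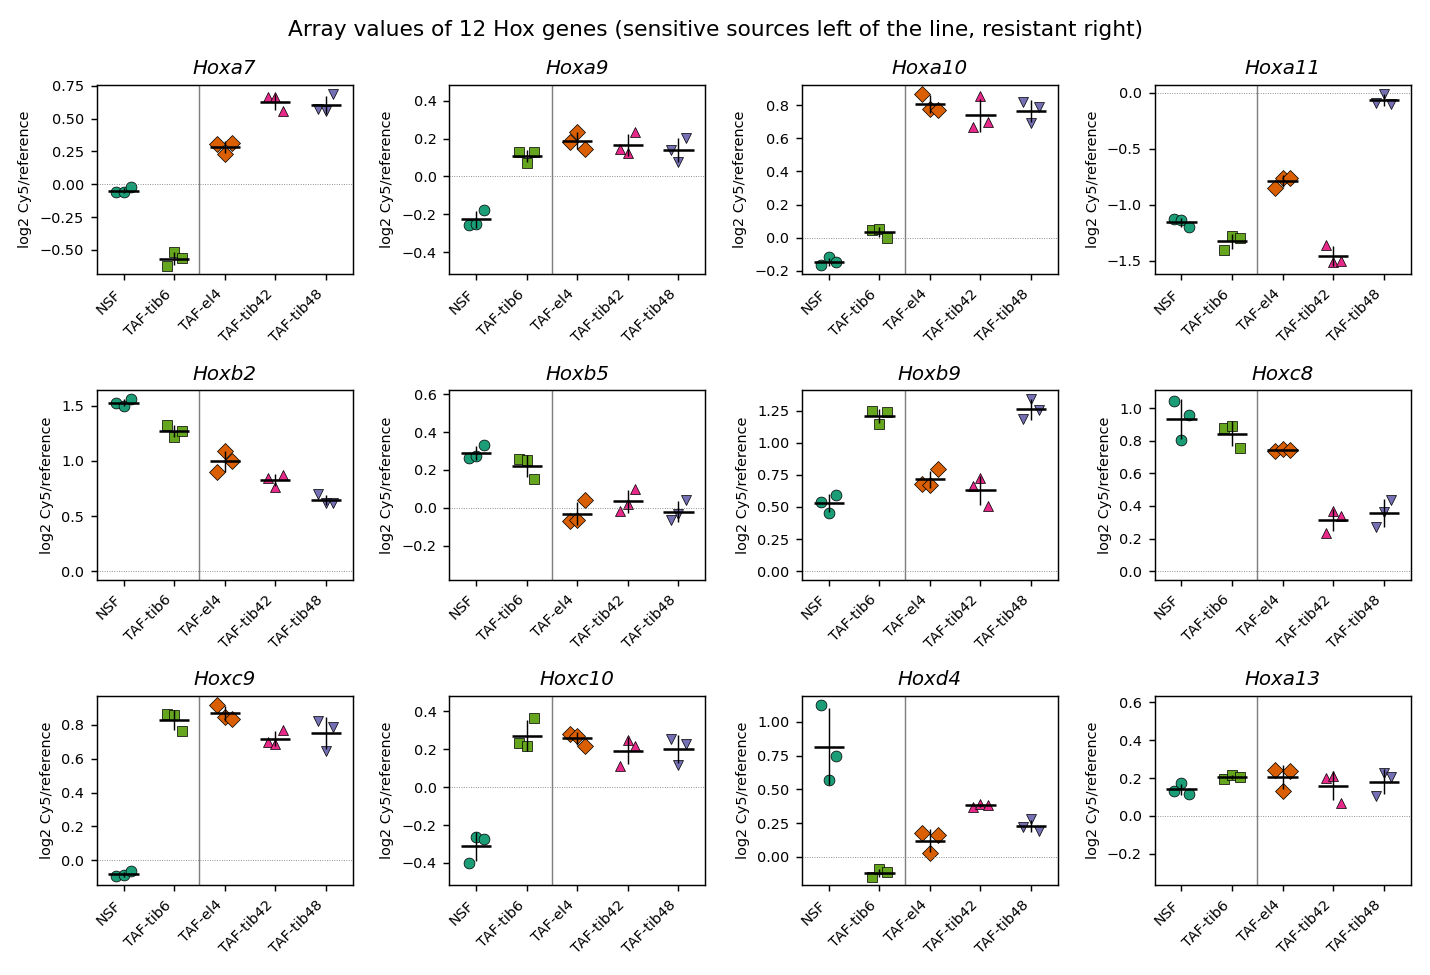
Points are the log2 ratios of single arrays for 12 Hox genes, 3 arrays per source, with the source mean as a horizontal bar and 1 SD as a vertical line. Sensitive sources stand left of the grey line. Hoxa7 and Hoxa10 split at that line, Hoxc9 and Hoxc10 are low in NSF alone, Hoxa11 is high in TAF-tib48, and Hoxa13 is level.

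Outside the Hoxa cluster, Hoxc9 and Hoxc10 were the posterior genes called higher in all 4 TAF sources than in NSF. Hoxc9 and Hoxc10, genes of the lower thoracic and lumbar body axis, were low in NSF and higher in the other 4 sources. Hoxc9 read -0.09, -0.09 and -0.07 in NSF, against 0.86, 0.86 and 0.76 in TAF-tib6, 0.92, 0.85 and 0.83 in TAF-el4, 0.70, 0.69 and 0.77 in TAF-tib42, and 0.83, 0.64 and 0.79 in TAF-tib48. Every array outside NSF read at least 0.64. Among those sources, Hoxc9 was called higher in TAF-el4 (mean 0.87) than in TAF-tib42 (0.72). The differences from NSF were 0.91 in TAF-tib6, 0.95 in TAF-el4, 0.80 in TAF-tib42 and 0.84 in TAF-tib48 (SE 0.049, adjusted p of 5.9e-10 or less by limma), folds of 1.88, 1.93, 1.74 and 1.79. These comparisons share the NSF arrays, and so does every set of differences from NSF below. Within slide run 1, TAF-el4 minus NSF was 0.97 for Hoxc9. Resistance did not order this gene, since the sensitive TAF-tib6 lay among the resistant sources.

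Hoxc10 read -0.40, -0.26 and -0.27 in NSF, and its means in TAF-tib6, TAF-el4, TAF-tib42 and TAF-tib48 were 0.27, 0.26, 0.19 and 0.20. The differences from NSF were 0.59, 0.57, 0.51 and 0.51 (SE 0.055, adjusted p of 1.3e-06 or less). On the scanner's ratio they were 1.07, 1.04, 0.95 and 0.96 for Hoxc10, again a dim probe with a mean Cy5 signal of 113.8 in NSF. A further Hoxc10 probe also had NSF lowest, with -0.01 in NSF and 0.22 to 0.28 elsewhere, though the other sources came in a different order.

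Hoxb9, a posterior gene of the thoracic axis, followed neither split. It read 0.54, 0.45 and 0.59 in NSF, 1.25, 1.15 and 1.24 in TAF-tib6, 0.68, 0.67 and 0.79 in TAF-el4, 0.66, 0.72 and 0.51 in TAF-tib42, and 1.18, 1.34 and 1.26 in TAF-tib48. The sensitive TAF-tib6 and the resistant TAF-tib48 were high and were not called apart (0.05, SE 0.059, adjusted p = 0.60). Both exceeded NSF, by 0.68 and 0.73 (adjusted p = 2.2e-07 and 2.7e-08). With slide run as a block, Hoxb9 in TAF-tib6 minus NSF was 0.45 (adjusted p = 0.14) and in TAF-el4 minus TAF-tib6 -0.30 (adjusted p = 0.17), against -0.50 (adjusted p = 5.7e-06) without it. Both high sources have arrays in slide run 3, TAF-tib6 all 3 and TAF-tib48 2 of 3. The TAF-tib48 array in run 2 read 1.18, against 0.51 to 0.79 on the other arrays of that run. The cause of these levels was not tested. TAF-el4 minus NSF was 0.19 (adjusted p = 0.036) and lost its call without any replicate in turn (adjusted p = 0.082 to 0.15).

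Among the 5 other posterior genes called by the F test, TAF-tib48 was the highest source for Hoxc13 (0.26) and Hoxd10 (0.24), and TAF-tib42 for Hoxd9 (0.13) and Hoxd12 (0.26). Hoxb13 spanned 0.18 with its lowest mean in NSF. Hoxc13 is known from hair follicles and nails, and Hoxd9 to Hoxd12 from the limb. Their ranges, from 0.14 to 0.32, were small, and the Cy5 signals of Hoxd10 were low, with source means from 28.9 to 61.4. With slide run as a block, none of the calls for Hoxb13, Hoxd9 and Hoxd12 remained, 1 of 4 remained for Hoxc13 and 2 of 4 for Hoxd10.

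Hoxb2 and Hoxd4 were called lower than NSF in all 4 TAF sources. Hoxb2, an anterior gene of the hindbrain and the neck region, fell in steps: 1.53, 1.50 and 1.56 in NSF, 1.32, 1.22 and 1.27 in TAF-tib6, 0.90, 1.09 and 1.0 in TAF-el4, 0.84, 0.77 and 0.87 in TAF-tib42, and 0.70, 0.62 and 0.62 in TAF-tib48. All neighbours in this order were called apart, and each resistant source lay below each sensitive source on all its arrays. On source means, Hoxb2 was not called by resistance (adjusted p = 0.35 by limma). The differences from NSF were -0.26 in TAF-tib6, -0.53 in TAF-el4, -0.70 in TAF-tib42 and -0.88 in TAF-tib48 (SE 0.050, adjusted p = 0.0017, 3.5e-07, 5.2e-09 and 1.9e-10), the last a 1.84-fold difference. The step from NSF to TAF-tib6 was lost with slide run as a block (-0.18, adjusted p = 0.63) and was 0.01 (adjusted p = 0.97) with ratios scaled to equal spread. Other steps of Hoxb2 were lost in the block fit as well: TAF-el4 minus TAF-tib6 was -0.35 (adjusted p = 0.065), TAF-el4 minus TAF-tib42 0.17 (adjusted p = 0.14) and TAF-tib42 minus TAF-tib48 0.13 (adjusted p = 0.38). The last 2 steps also lost their calls in some leave-one-out fits, down to 0.09 for TAF-el4 minus TAF-tib42 without replicate 2 and 0.14 for TAF-tib42 minus TAF-tib48 without replicate 3.

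Hoxb5, a middle gene of the neck and upper trunk, read 0.27, 0.27 and 0.33 in NSF and 0.26, 0.25 and 0.15 in TAF-tib6. It read -0.07, -0.06 and 0.04 in TAF-el4, -0.02, 0.02 and 0.10 in TAF-tib42, and -0.07, -0.03 and 0.04 in TAF-tib48. On source means, Hoxb5 was not called by resistance (adjusted p = 0.26 by limma). Each resistant source lay below each sensitive source on all its arrays, as for Hoxb2, with smaller differences. From NSF these were -0.32, -0.25 and -0.31, and from TAF-tib6 -0.25, -0.19 and -0.24 (SE 0.048, adjusted p of 0.0072 or less). For Hoxb5, slide run as a block left -0.11 for TAF-el4 minus TAF-tib6 (adjusted p = 0.62) and -0.12 for TAF-tib42 minus TAF-tib6 (adjusted p = 0.45). The latter was lost without replicate 1 (adjusted p = 0.16) and without replicate 2 (0.13) too.

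Hoxc8, a middle gene of the thoracic axis, was high in NSF (0.93), TAF-tib6 (0.84) and TAF-el4 (0.74) and lower in TAF-tib42 (0.31) and TAF-tib48 (0.36). The last pair lay 0.62 and 0.58 below NSF (SE 0.060, adjusted p = 3.1e-07 and 7.1e-07), and Hoxc8 thus divided the resistant sources, with TAF-el4 0.43 above TAF-tib42 (adjusted p = 2.4e-05). TAF-el4 minus NSF was -0.19 for Hoxc8 (adjusted p = 0.033), a call lost without replicate 1 or 3 (adjusted p = 0.28 and 0.15), with scaled ratios (0.44), on the scanner's ratio (0.19), with slide run as a block (0.070) and within slide run 1 (0.094). Hoxc6, the next middle gene of the same cluster, had means of 0.20, 0.32, 0.13, -0.12 and -0.01 in NSF, TAF-tib6, TAF-el4, TAF-tib42 and TAF-tib48, and was 0.44 lower in TAF-tib42 than in TAF-tib6 (SE 0.052, adjusted p = 4e-06). Hoxb6 and Hoxb7, middle genes of the Hoxb cluster, were lowest in TAF-el4 (0.21 and 0.23), against 0.49 and 0.57 in NSF, differences of -0.28 and -0.34 (adjusted p = 0.00012 and 0.00014). The slide-run block left that difference as the single call of 5 that Hoxb6 kept. Its differences of TAF-el4 from TAF-tib6 (-0.13, adjusted p = 0.56), TAF-tib42 (-0.13, adjusted p = 0.20) and TAF-tib48 (-0.16, adjusted p = 0.23) lost theirs. Hoxb7 kept 4 of 6 calls and Hoxc6 3 of 6.

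Hoxd4, a middle gene of the neck vertebrae, varied most between arrays in NSF (SD 0.28). It read 1.13, 0.57 and 0.75 there, -0.15, -0.09 and -0.12 in TAF-tib6, 0.18, 0.03 and 0.16 in TAF-el4, 0.37, 0.39 and 0.38 in TAF-tib42, and 0.22, 0.28 and 0.19 in TAF-tib48. Even the lowest NSF array exceeded every other array. The differences from NSF were -0.93 in TAF-tib6, -0.70 in TAF-el4, -0.43 in TAF-tib42 and -0.58 in TAF-tib48 (SE 0.090, adjusted p = 7.9e-07, 1.3e-05, 0.0014 and 7.5e-05). On the scanner's ratio, those of Hoxd4 were -1.85, -1.36, -0.76 and -0.96. With slide run as a block, the differences of Hoxd4 from NSF in TAF-tib42 (-0.50, adjusted p = 0.10) and TAF-tib48 (-0.65, adjusted p = 0.060) lost their calls, though neither was smaller.

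Counts over pairs of sources put these genes in the setting of all genes. Against NSF, TAF-tib6 had 6 Hox genes higher and 4 lower, with backgrounds of 4.63% and 6.71% of all genes. TAF-el4 had 7 higher and 6 lower (8.75% and 8.56%), TAF-tib42 7 higher and 8 lower (10.8% and 13.2%), and TAF-tib48 13 higher and 6 lower (11.7% and 14.4%). Of 15 posterior genes, 6, 6, 6 and 11 were higher than in NSF in the same order, and 1, 0, 1 and 0 lower, with Hoxa11 as the lower gene. Of 14 middle genes, 0, 1, 1 and 1 were higher, Hoxa7 being that gene, and 2, 5, 6 and 4 were lower. The median difference of the posterior genes was 0.07, 0.09, 0.12 and 0.27, and that of all genes lay between -0.0046 and 0.0015. Of 8 anterior genes, 0, 0, 0 and 1 were higher and 1, 1, 1 and 2 lower. With slide run as a block, 2, 5, 4 and 6 posterior genes were higher and 2, 4, 2 and 2 middle genes lower. Over all 37 genes, that block kept 4 calls of 10 for TAF-tib6 minus NSF, 11 of 13 for TAF-el4, 9 of 15 for TAF-tib42 and 10 of 19 for TAF-tib48. The shares of all genes called in either direction in the block fit were 1.34%, 14.7%, 7.77% and 6.43% in the same order.

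**Figure D3:**
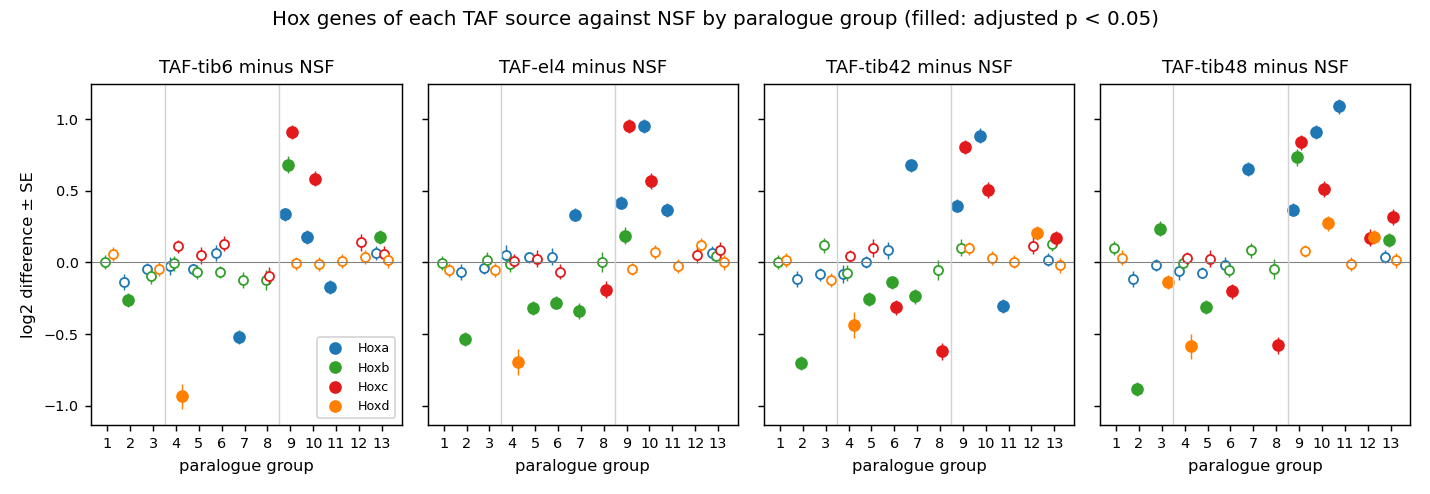
Each panel shows 1 TAF source minus NSF, with the log2 difference of 36 Hox genes and its SE on the vertical axis and the paralogue group from 1 to 13 on the horizontal axis, coloured by cluster. Filled points passed an adjusted p of 0.05, and grey lines divide anterior, middle and posterior groups. Most filled points above 0 lie in the posterior groups and most below 0 in groups 2 to 8. Exceptions are Hoxa7 above 0 in 3 panels, Hoxb3 above 0 in TAF-tib48, and Hoxa11 below 0 in TAF-tib6 and TAF-tib42. The 4 panels share the NSF arrays.

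Against TAF-tib6, TAF-el4 had 3 Hox genes higher and 6 lower (backgrounds 11.4% and 9.21%), TAF-tib42 had 6 and 5 (11.7% and 13.1%) and TAF-tib48 9 and 4 (11.5% and 13.2%). With the slide-run block, 3 calls remained of 9 for TAF-el4 and 6 of 11 for TAF-tib42, whereas 12 of 13 remained for TAF-tib48, with 5.38%, 9.66% and 21.2% of all genes called in either direction. Within slide run 3 alone, 11 Hox genes and 16.2% of all genes were called for TAF-tib48 minus TAF-tib6. Among the resistant sources, TAF-el4 minus TAF-tib42 gave 5 higher and 4 lower (13.3% and 9.65%), TAF-el4 minus TAF-tib48 2 and 9 (14.1% and 9.73%) and TAF-tib42 minus TAF-tib48 1 and 4 (6.62% and 7.64%). The block kept 4 of 9, 5 of 11 and 4 of 5 of these calls, with 14.1%, 8.90% and 8.13% of all genes called in either direction. The largest differences between TAF-tib42 and TAF-tib48 were Hoxa11 (-1.39), Hoxb9 (-0.63), Hoxb7 (-0.32) and Hoxd10 (-0.24), all higher in TAF-tib48. Some endothelial markers were also raised in that source, and the part of such cells in these differences was not tested.

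Whether Hox genes differ by resistance was tested on the 5 source means, since resistance is a label of the source. None of the 37 genes passed an adjusted p of 0.05 by limma, against 1 gene (0.00319%) of all tested. The 7 Hox genes with the lowest unadjusted p are given here for the size of their difference only, and none of them is a call. Among these 7, the largest differences were those of Hoxa10 (0.83, SE 0.064, adjusted p = 0.215), Hoxa7 (0.81, SE 0.19, adjusted p = 0.35), Hoxb2 (-0.58, SE 0.13, adjusted p = 0.35) and Hoxc8 (-0.42, SE 0.14, adjusted p = 0.48). Hoxb5, Hoxc6 and Hoxd12 followed at -0.26, -0.26 and 0.15 (adjusted p = 0.26, 0.48 and 0.42). The resistant and sensitive source means did not overlap for 12 of the 37 genes, against a background of 26.6% of all genes. The resistant means were the higher ones for Hoxa7, Hoxa9, Hoxa10, Hoxb3, Hoxc13, Hoxd10 and Hoxd12, and the lower ones for Hoxb2, Hoxb5, Hoxc6, Hoxc8 and Hoxd3. Some gaps were small. Hoxd3 had 0.061 in TAF-el4 and 0.066 in TAF-tib6, and Hoxa9 had 0.14 in TAF-tib48 and 0.11 in TAF-tib6.

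**Figure D4:**
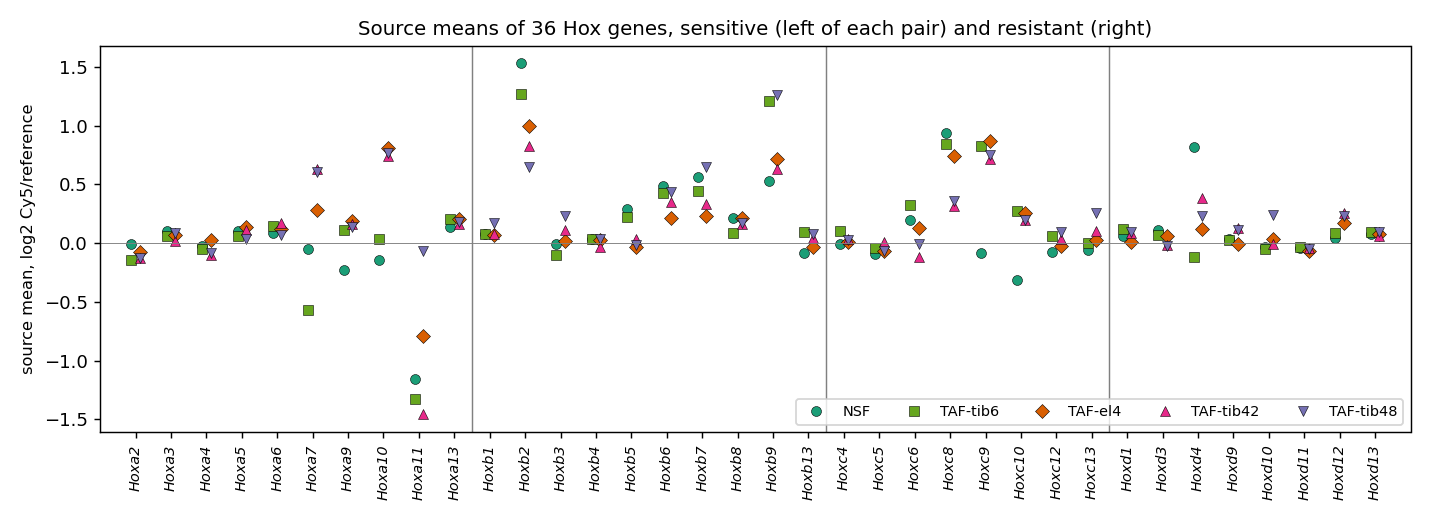
Points are source means (3 arrays each) of the log2 ratio for 36 Hox genes in order of cluster and position, with the 2 sensitive sources left and the 3 resistant sources right of each tick. Hoxa7 and Hoxa10 have their resistant means above, Hoxb2 and Hoxb5 below, and Hoxa11, Hoxb9, Hoxc8 and Hoxd4 have sources of 1 label far apart.

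Probes of the same gene did not always give the same picture. Hoxb8, a middle gene of the trunk, has 2 probes of like brightness. The probe that stood for the gene ranged over 0.13 between sources and did not pass the F test (adjusted p = 0.48). The other, brighter in Cy5, had means of 0.81 in NSF, 1.31 in TAF-tib6, 0.94 in TAF-el4, 0.60 in TAF-tib42 and 0.93 in TAF-tib48. By that probe Hoxb8 was 0.71 lower in TAF-tib42 than in TAF-tib6 (adjusted p = 9.7e-07) and 0.50 higher in TAF-tib6 than in NSF (adjusted p = 0.00015), so whether Hoxb8 differed depends on the probe. Hoxd9 has a second, dimmer probe with a range of 0.30, against 0.14 for the probe used. It had means of -0.20 in NSF, -0.23 in TAF-tib6, -0.12 in TAF-el4 and 0.07 in TAF-tib42 and TAF-tib48. Its resistant means thus lay above the sensitive ones, whereas those of the probe used overlapped. Sources were not tested by that Hoxd9 probe alone. The Hoxb3 probe also lists the transcript of Hoxd3 and may not tell the 2 genes apart.

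**Figure D5:**
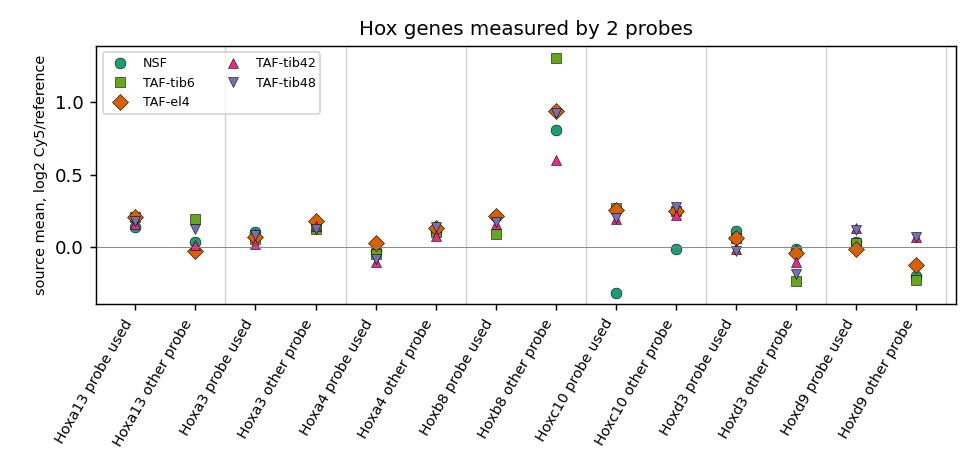
Points are source means of the log2 ratio for both probes of the 7 Hox genes with several probes, the probe used here first. The other Hoxb8 probe spreads from 0.60 to 1.31 where the probe used is level, and both Hoxc10 probes have NSF lowest.

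Genes that act with or on the Hox clusters were followed as 5 lists. Of all genes tested, 42.9% passed the F test, and their median range was 0.159. Cofactors of the TALE class are homeodomain proteins such as Pbx and Meis that bind DNA with Hox proteins. Of 11 such genes, 8 (72.7%) passed the F test, with a median range of 0.218. Meis2 was lowest in TAF-tib42 (-0.72) and highest in TAF-tib6 (-0.19), and Pbx2 fell from 0.00 in NSF to -0.48 in TAF-tib48 (adjusted p = 1.1e-05). Of 20 polycomb and trithorax regulators, which keep Hox clusters silent or active, 12 (60%) passed with a median range of 0.216. Among them were Ezh2 (-1.66 in TAF-tib6 to -1.16 in TAF-el4) and Cbx6 (-1.45 in TAF-el4 to -0.99 in TAF-tib6). All ranges in these 2 lists stayed under 1.

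Retinoic acid turns on Hox genes in order along the cluster in embryos. Of 20 genes of its pathway and the Cdx family, 13 (65%) passed the F test, against 42.9% of all genes. Their median range was 0.322, and 4 spanned at least 1 log2 unit, against 2.26% of all genes. Aldh1a2, an enzyme that makes retinoic acid, fell from 1.64 in NSF to 0.00 in TAF-tib42, whereas its relative Aldh1a3 was highest in TAF-tib48 (1.48) and Aldh1a1 in TAF-tib6 (0.32). Of 43 other regulators of position, 24 (55.8%) passed with a median range of 0.235. The largest ranges were those of Meox2, a homeobox gene of the somites (0.92 in TAF-tib6 to 2.92 in TAF-tib42), Foxf2 (-1.60 in TAF-tib6 to 0.23 in NSF), Prrx2, a gene of limb and face mesenchyme (-0.84 in TAF-tib42 to 0.83 in TAF-tib6), and Tbx3, a T-box gene of limb and mammary development (-0.62 in TAF-tib48 to 0.66 in NSF). Of 16 genes that flank the clusters, 6 (37.5%) passed, with a median range of 0.140, below the 0.159 of all genes. The homeobox neighbours Evx1 (adjusted p = 0.27) and Evx2 (0.18) did not pass. No gene of the 5 lists passed in the test of resistant against sensitive sources.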

How the data were processed

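The arrays are Agilent 2-colour arrays, 3 for each of 5 sources, with the fibroblast RNA in Cy5 on every array. Per the file headers, the deposited files come from the scanner and give each spot's intensity in both dyes (mean) with the local background (median). A log10 ratio computed by the scanner software after its background subtraction and dye normalisation is included, per the file headers. The scanner software was Agilent Feature Extraction, in version 8.5.1.1 per the submitters' processing notes and 9.5 per a label's protocol. The authors' deposited table of processed values holds log2 ratios that follow the scanner's ratio (slope and correlation 1), which sets the direction as Cy5 over Cy3. Its column medians lay between 0.0337 and 0.0511, so columns were not centred on 0.

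Background was corrected by normexp with an offset of 50, which shrinks ratios of dim probes, followed by loess within each array (limma 3.58.1, R 4.3.3). Control spots had weight 0 and were removed, flagged outlier spots were left out, and saturated spots were kept. No Hox spot was saturated. Probes were named through accessions in a gene table of assembly GRCm38.p6 (22072 of 41174), through bracketed symbols (2100) or kept the name in the files (17002). A gene name was tested if its Cy5 signal carried the scanner's flag for well above background on all 3 arrays of a source. That left 31342 names; the flag is lenient, at 89.6% to 95.8% of probes per array.

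Median Cy5 per array was 174.7 to 285.9 over a background of 52 to 56; precision is limited by the number of arrays. Arrays of a source correlated over genes at 0.9601 to 0.9876 and arrays of different sources at 0.8411 to 0.9482, with a median SD between arrays of a source of 0.0632. An F test over 5 sources and the 10 pairs came from 1 limma fit (lmFit, eBayes) of 15 arrays, and resistance was tested by limma on 5 source means. Tests were two-sided with Benjamini-Hochberg adjustment over all names tested, with a threshold of 0.05 for a call. The steps were tested on simulated data. The Hox genes, the gene lists and the naming rule were chosen with earlier results of these data known. By the naming rule, values on every array are given for genes whose source means span at least 1 (Hoxa7 and Hoxa11) and for Hoxa10, which the rule names although it spans less. Single-array values of Hoxa9, Hoxb2, Hoxb5, Hoxb9, Hoxc9, Hoxc10 and Hoxd4 were added after their values were seen, as was the choice of promoters to print. Alternatives were other background corrections, normalisations, ratio sources, filters and probe choices, slide run and replicate number as blocks, and each replicate or source left out. Some genes that enter the tests and counts are not reported here by name.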

Additional observations from a re-analysis of the deposited data

How the results depend on the processing

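The count of Hox genes called by the F test, 20, lay between 17 and 21 in all alternatives run. The count called between resistant and sensitive sources was 0 in all of them, including without each source in turn. That test called only 1 of 31342 genes in the main fit, so a count of 0 cannot tell if Hox genes differ by resistance. The number of Hox calls moved with the slide run as a block: TAF-el4 minus TAF-tib6 gave 3 (9 without it), TAF-tib42 minus TAF-tib6 6 (11), TAF-tib48 minus NSF 10 (19), TAF-tib6 minus NSF 4 (10), TAF-el4 minus TAF-tib42 4 (9) and TAF-el4 minus TAF-tib48 5 (11). Within slide run 2 alone, an alternative chosen after seeing the data, TAF-el4 and TAF-tib48 have 1 array each. Counts of calls there are not given. TAF-el4 minus TAF-tib42 gave 5 with scaled ratios and 5 to 6 when leaving out a replicate. Of the 115 calls over Hox genes and pairs, 68 kept direction and call with the slide-run block, 83 with Cy5 alone, 93 with scaled ratios, 102 with median centring, 106 on the scanner's ratio and 106 on the authors' table. Without subtraction of background 114 did, and 88 to 95 without 1 replicate of each source. Replicate numbers did not pair the arrays: of 30 same-numbered pairs, 2 correlated above 0.1 in their deviations (range -0.194 to 0.169). With the replicate block the F test called 20 Hox genes, and 110 of the 115 pair calls were kept. The difference of Hoxa10 between resistant and sensitive sources ran from 0.74 to 0.96, and that of Hoxa7 from 0.55 to 1.07. Among the calls that turned sign were those of Hoxb2 for TAF-tib6 minus NSF with scaled ratios (0.01) and, with Cy5 alone, of Hoxb13 for TAF-tib48 minus NSF (-0.11) and Hoxb3 for TAF-el4 minus TAF-tib48 (0.00). Differences of Hoxb8, not called by the probe used, changed sign against TAF-tib6 by its other probe (-0.37 in TAF-el4, -0.71 in TAF-tib42 and -0.38 in TAF-tib48), and differences of Hoxc4 and Hoxc5, likewise not called, changed sign with Cy5 alone (0.48 for Hoxc5 in TAF-el4 minus TAF-tib6). Where a call changed, the cause was not tested. Dim signal limits what can be seen: Hoxa2, Hoxb1, Hoxc12, Hoxd1, Hoxd10, Hoxd11 and Hoxd13 had mean Cy5 signals from 28.9 to 61.4, where differences are shrunk by the offset.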
